A study of Mus musculus with 16 samples.

Results

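The genes described are those that encode mitochondrial ribosomal proteins. They were taken as all genes whose symbol on the array platform begins with Mrpl or Mrps followed by a digit, each measured by the brightest probe set that maps to that gene alone. This gave 74 of the 12394 genes tested. By symbol 47 were Mrpl genes and 27 Mrps genes. A further pair, Mrpl30 and Mrpl53, was represented only by probe sets shared with other genes and was not analysed here. Of the 74 products, 49 belong to the large subunit (Mrps18a and Mrps30 among them, in spite of their symbols) and 24 to the small subunit. The last one, Mrps36, is no longer counted as a ribosomal protein and is a part of the 2-oxoglutarate dehydrogenase complex.

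Mitochondria translate the few messages of their own genome, all for subunits of the respiratory chain and of ATP synthase, on a ribosome apart from that of the cytosol. Its RNAs are made in the organelle, whereas every one of its proteins is encoded in the nucleus, translated in the cytosol and imported. Many of these proteins descend from bacterial ribosomal proteins and the others exist only in mitochondrial ribosomes. GABP, an Ets family transcription factor, binds DNA through its α subunit, and genes of mitochondrial biogenesis are among its known targets in several tissues. T cells that leave quiescence expand their mitochondria.

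RNA came from naive CD4+ and CD8+ T cells, sorted as CD25 negative, CD62L high and CD44 low from spleen and lymph nodes of mice. WT mice carried floxed Gabpa alleles on both chromosomes and no Cre. KO mice carried the same alleles and CD4-Cre, which is expressed from the double-positive thymocyte stage onwards and therefore acts in both lineages. Cells were taken either directly (0 h) or after 18 h of culture with IL-2 and antibodies against CD3 plus CD28, so 8 groups of 2 biological replicates each gave 16 Affymetrix arrays. By the protocol, each sort was split between the 0 h and 18 h samples. The labels do not state whether replicates were separate mice, nor the age of the mice, so p-values cover the spread of these arrays alone. All values below are log2 probe set values, on which a difference of 1 is a doubling, and errors are standard errors (SE) of the fitted difference between groups.

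The arrays as a whole set some bounds. Replicates were correlated across genes, which are not independent, at r between 0.97 and 0.994. The Il2ra probe set, for the receptor chain that appears on activated T cells, lay at 2.64 to 4.51 at 0 h and at 7.49 to 8.94 at 18 h in all groups. The marker lists of B, myeloid and erythroid cells had medians between 3.14 and 4.33 in every array, against 10.26 to 11.37 for T cell markers. In CD4 WT 0 h replicate 1 the NK cell markers had a median of 6.53 and the CD8 lineage markers one of 8.04, the highest of the CD4 arrays. Probe sets at the 3' and 5' ends of actin and Gapdh differed by 3.76 on average in CD8 KO 18 h replicate 2, by 1.58 in CD4 WT 0 h replicate 1, by 1.11 in CD8 KO 0 h replicate 2 and by 0.46 to 0.85 in the other 13 arrays. The Gabpa probe set read 8.74 to 9.34 in WT and 9.09 to 9.79 in KO arrays. The sources do not say whether its probes fall within the deletion, so this is no check of the genotype. Because these are bulk samples, fewer cells of a type and less RNA per cell cannot be told apart.

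All 74 genes had bright probe sets, in part because the brightest probe set was taken for each gene. The mean level over all 16 arrays was between 7.01 and 10.47 for the 74 genes, with a median of 8.79, whereas the median of all genes tested was 5.88. All 74 genes were above the latter value. Values of different probe sets do not give an order of transcript abundance, so these are levels of probe sets, and no gene or set is ranked against another by them. Mrpl24, Mrps14 and Mrpl39 had the brightest probe sets, with mean levels of 10.47, 10.42 and 10.27, and Mrpl38, Mrpl14 and Mrpl1 the dimmest, at 7.01, 7.21 and 7.31. Mrpl24 was also the gene that varied least. Its 16 values ran from 10.20 to 10.87, while the widest ranges were those of Mrpl27 (6.01 to 9.48), Mrps6 (6.67 to 9.54) and Mrpl16 (6.75 to 9.34).

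The genes moved together between replicates. In the CD4 arrays the members were lower in replicate 2 than in replicate 1 of every group, with median shifts of -0.36, -0.25, -0.23 and -0.17, and in the CD8 arrays they were higher, with median shifts of 0.18, 0.36, 0.38 and 0.56. In the 4 CD8 groups between 65 and 72 of the 74 genes were higher in replicate 2, against 6 to 14 in the CD4 groups. The median shift of all genes was between -0.04 and 0.07 in 7 groups and 0.24 in CD8 KO 18 h. The standard deviation of the median level of the 74 genes between replicates was 0.245, so differences between groups of that size in the median of the set, as between KO and WT below, are no larger than the spread of replicates. The 3 arrays with a 3' to 5' difference over 1 were each the replicate of their group with the higher levels of these genes, and the part of RNA quality in the shifts was not tested.

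**Figure D1:**
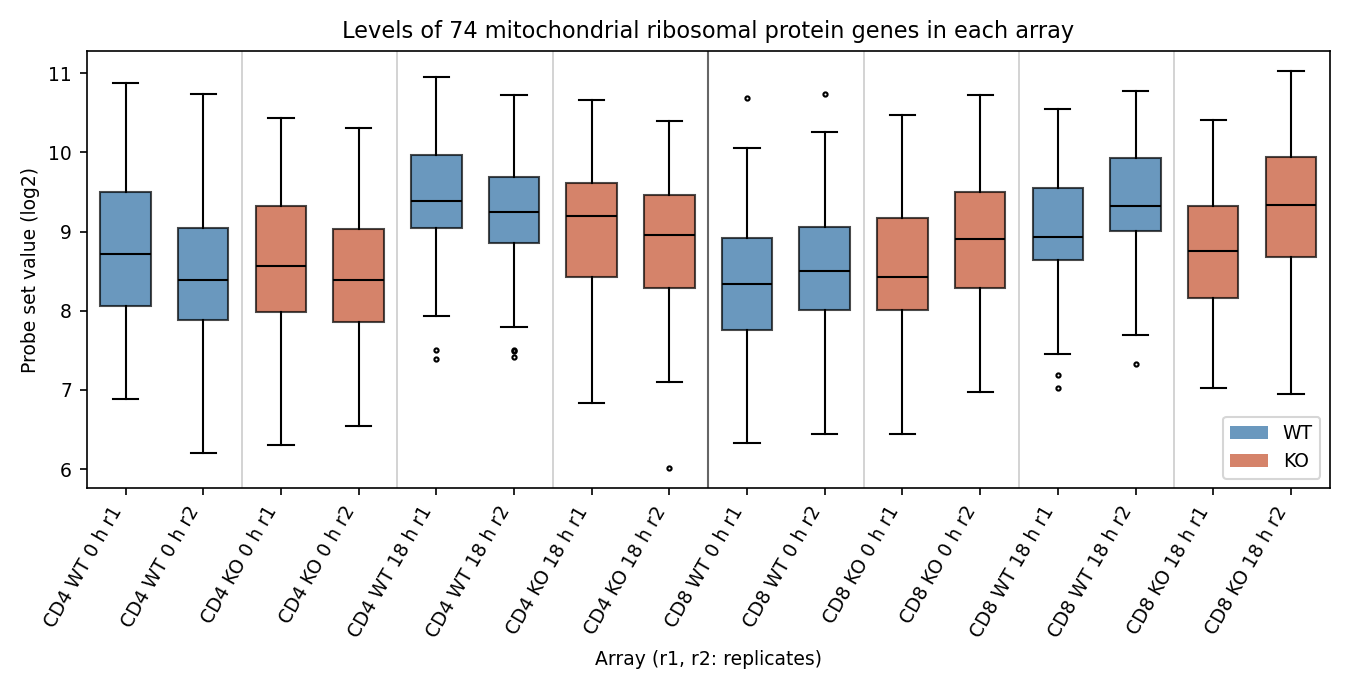
Box plots of the values (log2) of the 74 mitochondrial ribosomal protein genes in each of the 16 arrays, with the median as a line, the quartiles as the box, whiskers to 1.5 times the interquartile range and points beyond. WT arrays at 18 h have medians of 8.93 to 9.38, all above the WT arrays at 0 h, at 8.34 to 8.71.

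Transcripts of many of these genes were higher in WT cells after stimulation. No group was cultured without IL-2 and the antibodies. Stimulation therefore stands here for 18 h of culture with all of them, and their parts cannot be told apart. A call required a limma p, adjusted over all genes by Benjamini-Hochberg, under 0.05 together with more than a 1.5-fold difference. In WT CD4 cells 37 of the 74 genes rose and 0 fell (2 were lower at an unadjusted p under 0.05), where 12.2% of all genes tested rose and 14% fell. In WT CD8 cells 27 rose and 0 fell (0 were lower at an unadjusted p under 0.05), where 8.21% of all genes rose and 7% fell. The median difference over the 74 genes was 0.72 in either lineage, and over all genes it was -0.07 in CD4 and -0.06 in CD8 cells. Of the 37 and 27 genes, 26 were common to both lineages. Both 18 h arrays were above both 0 h arrays for 57 genes in CD4 cells, against 24.5% of all genes, and for 63 in CD8 cells, against 25.1%. With both parts of a sort as a block (a fit chosen after the results were seen, in which arrays of equal number, lineage and genotype were taken as 1 sort) 46 rose in CD4 and 44 in CD8 cells, where 13.9% and 10.7% of all genes did. Markers of other cells moved in the same contrast. In the CD4 WT arrays the NK cell markers had medians of 6.53 and 4.93 at 0 h and of 4.26 and 3.10 at 18 h, and the CD8 lineage markers medians of 8.04 and 6.32 at 0 h and of 7.15 and 5.50 at 18 h. Of the 5 NK cell markers 2 fell in CD4 and 2 in CD8 WT cells, of the 7 B cell markers 1 fell in CD4 cells, neither of the 2 CD8 lineage markers was called in either lineage, and the part of other cells in the rise was not tested. Without CD4 WT 0 h replicate 1, the array with the highest NK cell markers, 39 members were called in CD4 cells. The counts leaned on other single arrays. In CD4 cells 22 were called without CD4 WT 0 h replicate 2 and 21 without CD4 WT 18 h replicate 1, and in CD8 cells 8, 16 and 6 were called without CD8 WT 0 h replicate 1, CD8 WT 0 h replicate 2 and CD8 WT 18 h replicate 2. The median difference stayed between 0.51 and 0.95 whichever array was left out.

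The rise ran through both subunits. Of the 49 large subunit genes 24 rose in CD4 and 17 in CD8 WT cells, with median differences of 0.81 and 0.76. Of the 24 small subunit genes 12 and 9 rose, with medians of 0.68 and 0.59. Genes with a bacterial homologue (43) and genes found only in mitochondrial ribosomes (30) had medians of 0.77 and 0.68 in CD4 cells and of 0.72 and 0.66 in CD8 cells. The differences in WT CD4 and WT CD8 cells, which share no arrays, were correlated across the 74 genes at r = 0.91 and rho = 0.89, while over all genes r was 0.85. Genes are not independent replicates, and both lineages were measured with the same probe sets.

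Mrps6, the homologue of the bacterial small subunit protein bS6, had the highest mean response of the lineages. Its values were 7.28 and 7.29 in CD4 WT cells at 0 h, 9.08 and 8.89 at 18 h, 6.67 and 6.91 in CD8 WT cells at 0 h, and 8.26 and 8.80 at 18 h. The groups were far apart in both lineages, and the differences were 1.70 ± 0.19 (adjusted p = 2.79e-05) and 1.74 ± 0.19 (adjusted p = 9.81e-05), or 3.24-fold and 3.33-fold. In the RefSeq annotation Mrps6 overlaps Slc5a3, a myo-inositol transporter gene, and whether the probes reach shared bases was not tested. Mrps22, a small subunit protein with no bacterial counterpart, was at 8.08 and 7.61 before and 9.70 and 9.36 after stimulation of CD4 WT cells, and at 7.67 and 7.73 before and 8.83 and 9.41 after stimulation of CD8 WT cells. The differences, 1.68 ± 0.24 and 1.42 ± 0.24, corresponded to 3.21-fold and 2.67-fold. Mrps25 rose by 1.58 ± 0.23 and 1.45 ± 0.23.

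Among large subunit genes, Mrpl12 encodes the protein of the stalk that recruits translation factors. It stood at 9.01 and 8.52 in resting and 10.51 and 10.30 in stimulated CD4 WT cells, and at 8.75 and 8.77 in resting and 9.84 and 10.17 in stimulated CD8 WT cells. It rose by 1.64 ± 0.19 and 1.25 ± 0.19, and the resting and stimulated arrays did not overlap. In the same order of lineages, Mrpl47 rose by 1.56 ± 0.23 and 1.16 ± 0.23, and Mrpl17 by 1.40 ± 0.27 and 1.26 ± 0.27. At the other end of the genes called in both lineages were Mrpl15 (0.91 and 0.79), Mrpl3 (0.98 and 0.69), Mrps11 (0.77 and 0.79), Mrpl37 (0.92 and 0.60), Mrps15 (0.73 and 0.59) and Mrpl34 (0.60 and 0.71), all homologues of bacterial proteins except Mrpl37. Mrps11 has a second, dimmer probe set with a mean of 4.92, which read -0.79 where the brighter one read 0.77 in CD4 cells.

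Other members had differences near or below 0. Mrpl24 was already at 10.87 and 10.74 in resting CD4 WT cells and at 10.27 and 10.23 after stimulation, a difference of -0.55 ± 0.14 (adjusted p = 0.00758) that stayed under the 1.5-fold threshold. Outside the rule for naming genes, and chosen after their values were seen, Mrpl58 and Mrpl45 are given as a low and a high value. Mrpl58, a release factor relative that frees stalled ribosomes, differed by -0.47 ± 0.22 in CD4 and by -0.12 ± 0.22 in CD8 WT cells. Mrpl45, which lines the exit of the peptide tunnel at the inner membrane, differed by 1.93 ± 0.44 in CD4 WT cells, with 0 h values of 7.04 and 7.78 that lay 0.74 apart, and by 1.19 ± 0.44 in CD8 WT cells (adjusted p = 0.0953). In CD8 cells several members were above Mrpl45, among them Mrps6, Mrps25, Mrps22, Mrpl17 and Mrpl12. In both lineages Mrpl24 was below Mrpl58, at -0.55 and -0.21.

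Genes of the cytosolic ribosome are given for comparison. Of 48 such genes 2 rose and 2 fell in CD4 and 2 rose and 1 fell in CD8 WT cells, with median differences of -0.04 and -0.03. Their median level was 13.20 to 13.47 in the 16 arrays, near the top of the scale of 14.45, and how far bright probe sets compress differences was not tested. Other nuclear genes of mitochondrial translation moved in both directions in WT cells. Among 19 genes of ribosome assembly and rRNA modification 4 rose and 2 fell in CD4 and 1 rose and 1 fell in CD8 cells. The genes that fell were Mettl17, needed for assembly of the small subunit (-0.82 ± 0.13 in CD4, -0.65 ± 0.13 in CD8), and Mrm1, an rRNA methyltransferase (-0.75 ± 0.22 in CD4). Of 8 genes of transcription and DNA upkeep Mgme1, a nuclease, rose (1.61 ± 0.17 in CD4, 0.95 ± 0.17 in CD8) and Polg, the DNA polymerase, fell (-0.63 ± 0.16 in CD4), and of 8 tRNA synthetases Rars2 rose (0.70 ± 0.24 in CD4). Of the 9 translation factors measured 5 rose in CD4 and 4 in CD8 cells, and none was called lower. The elongation factors Tufm (1.14 ± 0.17 in CD4, 0.69 ± 0.17 in CD8) and Gfm1 (1.48 ± 0.23 and 0.97 ± 0.23), the mRNA-binding protein Lrpprc (1.39 ± 0.21 and 0.89 ± 0.21) and the deformylase Pdf (0.94 ± 0.20 and 0.84 ± 0.20) rose in both lineages, and the elongation factor relative Gfm2 in CD4 cells (0.77 ± 0.26).

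**Figure D2:**
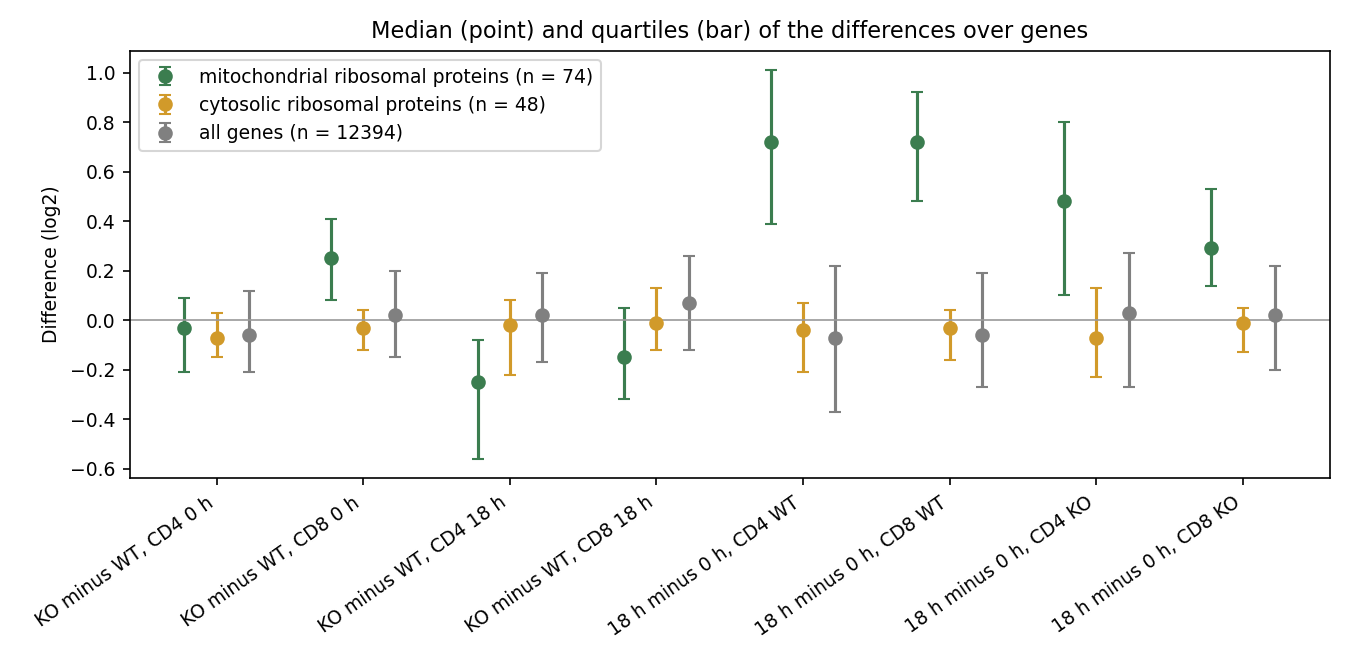
Median (point) and quartiles (bar) of the differences (log2) over the 74 mitochondrial ribosomal protein genes, 48 cytosolic ribosomal protein genes and all 12394 genes, in 8 contrasts. The mitochondrial set has its highest medians, 0.72, on stimulation of WT cells, where the cytosolic set is at -0.04 and -0.03.

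No member was called between the lineages in WT cells. Between CD8 and CD4 WT cells limma called 0 of the 74 genes at 0 h, where 1.28% of all genes were called, and 0 at 18 h, where 3.28% were. At an unadjusted p under 0.05 there were 1 and 3, all lower in CD8 cells. The median differences were -0.12 and -0.18, smaller than or near the median shift between replicates of most groups.

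Few members were called between KO and WT in resting cells. In CD4 cells at 0 h, 1 gene was higher (Mrpl43) and 1 lower (Mrpl16) in KO than in WT cells, where 0.533% of all genes were higher and 0.742% lower. At an unadjusted p under 0.05, 3 were higher and 5 lower. In CD8 cells at 0 h, 2 were higher (Mrpl43 and Mrps18a), where 1.13% of all genes were higher. Limma called 0 lower, where 0.5% of all genes were lower. At an unadjusted p under 0.05, 10 were higher and 2 lower in CD8 cells. Counts at an unadjusted p, here and elsewhere, were made for the members alone. They have no share of all genes to be set against. The median differences were -0.03 in CD4 and 0.25 in CD8 cells, with -0.06 and 0.02 over all genes. In resting CD4 cells the NK cell markers (5 genes, 1 of them called lower) had a median difference of -0.46 and the 2 CD8 lineage markers one of -0.82, and the part of other cells in these results was not tested. The resting CD4 count fell to 0 when any of the 4 arrays compared was left out and to 1 when any of the other arrays was, apart from the pair of CD8 KO arrays at 18 h, where leaving out either gave 3. The resting CD8 count was 0 without either WT array or without KO replicate 2 and 1 without KO replicate 1.

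In stimulated CD4 cells more members were called. Of the 74 genes 8 were lower in KO cells, against 4.14% of all genes, and 0 were higher (1 at an unadjusted p under 0.05), against 2.72% of all genes. Both KO arrays lay below both WT arrays for 41 genes, where 22.9% of all genes did so, and the median difference was -0.25 against 0.02 over all genes. In stimulated CD8 cells 2 genes were lower, against 1.16% of all genes, and 0 were higher (0 at an unadjusted p under 0.05), against 1.59%. Both KO arrays lay below both WT arrays for 13 genes, where 12.6% of all genes did so, a share not far from that of the members. The median difference was -0.15 against 0.07 over all genes. Without CD8 KO 18 h replicate 2, the array with the largest 3' to 5' difference, it was -0.37, and over all arrays left out in turn it ran from -0.37 to 0.14 in CD8 and from -0.36 to -0.15 in CD4 cells. With the replicate number as a block within each lineage, 18 genes in CD4 and 7 in CD8 cells were lower, where 6.01% and 2.41% of all genes were. The count of 8 became 4 or 5 on leaving out any single array of the 4 compared. The CD8 count also leaned on single arrays, and it changed without CD8 WT 18 h replicate 2. Without CD8 KO 18 h replicate 1, members were called in both directions and the median difference was 0.14.

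Mrpl16, which descends from a bacterial protein near the site where tRNAs bind in the large subunit, was lower in KO cells in every group. At 0 h its values were 8.12 and 8.06 in WT and 6.97 and 6.75 in KO CD4 cells, and 8.04 and 8.20 in WT and 7.05 and 7.52 in KO CD8 cells. At 18 h they were 9.34 and 9.13 in WT and 7.92 and 7.94 in KO CD4 cells, and 8.93 and 9.29 in WT and 7.51 and 7.85 in KO CD8 cells. In each of the 4 pairs of groups every WT array was above every KO array. The differences were -1.23 ± 0.19 (adjusted p = 0.00909) and -1.31 ± 0.19 (adjusted p = 0.00153) in CD4 cells at 0 h and 18 h, and -0.84 ± 0.19 (adjusted p = 0.0542) and -1.43 ± 0.19 (adjusted p = 0.00256) in CD8 cells, or 2.35-fold, 2.48-fold, 1.79-fold and 2.69-fold lower, of which the resting CD8 one missed the threshold. Stimulation raised Mrpl16 in KO and WT CD4 cells, by 1.06 and 1.15, and in WT CD8 cells, by 0.98. In KO CD8 cells the difference was 0.39 ± 0.19 (adjusted p = 0.285). The responses of the genotypes differed by -0.08 ± 0.28 in CD4 and by -0.59 ± 0.28 in CD8 cells, neither past the test. Both 18 h calls held whichever array was left out.

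Mrps35, a small subunit protein particular to mitochondrial ribosomes, had a like pattern. At 0 h it read 8.62 and 8.35 in WT and 7.75 and 7.35 in KO CD4 cells, and 8.24 and 8.52 in WT and 7.71 and 7.96 in KO CD8 cells. At 18 h it read 8.94 and 8.70 in WT and 7.60 and 7.43 in KO CD4 cells, and 8.56 and 8.98 in WT and 7.64 and 7.93 in KO CD8 cells. WT and KO arrays did not overlap in any of the 4 comparisons. The difference passed the test at 18 h, with -1.30 ± 0.21 (adjusted p = 0.00233) in CD4 and -0.99 ± 0.21 (adjusted p = 0.0265) in CD8 cells, and not at 0 h, with -0.93 ± 0.21 (adjusted p = 0.0527) and -0.54 ± 0.21 (adjusted p = 0.328). The CD8 call at 18 h was lost without CD8 WT 18 h replicate 2.

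Mrpl27, whose bacterial homologue reaches into the peptidyl transferase centre, showed the largest difference of the 74 genes. In CD4 cells it was at 9.0 and 8.49 in WT and 8.28 and 7.99 in KO at 0 h, and at 9.48 and 8.98 in WT and 6.83 and 6.01 in KO at 18 h. The stimulated KO arrays held its lowest values of the 16 arrays. In CD8 cells it was at 8.31 and 8.48 in WT and 7.88 and 8.41 in KO at 0 h, and at 9.0 and 9.43 in WT and 8.10 and 8.68 in KO at 18 h. KO was 7.02-fold lower in stimulated CD4 cells (-2.81 ± 0.31, adjusted p = 0.000185), whereas the differences in the other groups, -0.61 ± 0.31, -0.25 ± 0.31 and -0.82 ± 0.31 in resting CD4, resting CD8 and stimulated CD8 cells, did not pass the test. The call held whichever array was left out. Mrpl27 overlaps Eme1, a DNA repair gene, in the annotation.

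Mrps34, another small subunit protein known only from mitochondria, was at 9.98 and 9.88 in WT and 8.37 and 7.82 in KO stimulated CD4 cells. The values were 9.94 and 10.27 in WT and 8.88 and 9.61 in KO stimulated CD8 cells. All KO arrays were below the WT arrays of the same lineage, and the differences were -1.84 ± 0.28 (adjusted p = 0.00171) and -0.86 ± 0.28 (adjusted p = 0.127). At 0 h the differences were -0.42 ± 0.28 and -0.20 ± 0.28.

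A further 4 genes were lower in stimulated KO CD4 cells. Mrps21, homologue of the bacterial small subunit protein bS21, stood at 9.52 and 9.53 in WT and 8.11 and 7.85 in KO cells (-1.55 ± 0.34, adjusted p = 0.0146). Mrpl28 stood at 9.17 and 9.17 in WT and 7.95 and 7.54 in KO cells (-1.43 ± 0.29, adjusted p = 0.00959). It had 2 other probe sets, of which 1 read -1.53 and the other -0.51. Mrpl33 stood at 9.67 and 9.39 in WT and 8.67 and 8.34 in KO cells (-1.03 ± 0.24, adjusted p = 0.0226), and Mrpl51 at 10.42 and 10.27 in WT and 9.64 and 9.35 in KO cells (-0.85 ± 0.23, adjusted p = 0.0401). The other probe sets of these genes were dim, with means of 3.62 for Mrpl33 and of 4.97 and 4.46 for Mrpl51, and read between -0.34 and 0.09. WT and KO arrays did not overlap for any of the 4 genes. The Mrps21 and Mrpl33 calls were lost on leaving out any single array of the 4 compared, the Mrpl28 call without either WT array or KO replicate 2, and the Mrpl51 call was kept in 6 of 16 runs that left out 1 array. In stimulated CD8 cells the differences of the 4 genes were -0.70, -0.52, -0.23 and -0.40, and none passed the test.

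A pair of genes was higher in resting KO cells. Mrpl43, a large subunit protein of mitochondria alone, read 8.72 and 8.63 in WT and 9.33 and 9.23 in KO CD4 cells, and 8.74 and 8.83 in WT and 9.38 and 9.50 in KO CD8 cells. Every KO array was above every WT array, by 0.61 ± 0.13 (adjusted p = 0.0404) and 0.65 ± 0.13 (adjusted p = 0.027). At 18 h the differences were 0.00 ± 0.13 in CD4 and 0.15 ± 0.13 in CD8 cells, and in CD4 cells the WT values of 9.35 and 9.34 overlapped those of KO, 9.34 and 9.35. The CD4 call was kept in 2 of the 16 runs that left out 1 array and the CD8 call in 12. Mrps18a read 8.03 and 8.21 in WT and 8.90 and 9.44 in KO CD8 cells (1.05 ± 0.21, adjusted p = 0.027), and 8.39 and 8.24 in WT and 9.12 and 8.98 in KO CD4 cells (0.74 ± 0.21, adjusted p = 0.155). Its CD8 call was lost without either WT array or without KO replicate 2. In the annotation Mrpl43 overlaps Twnk, the gene of the mitochondrial DNA helicase, and Mrps18a overlaps Rsph9.

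**Figure D3:**
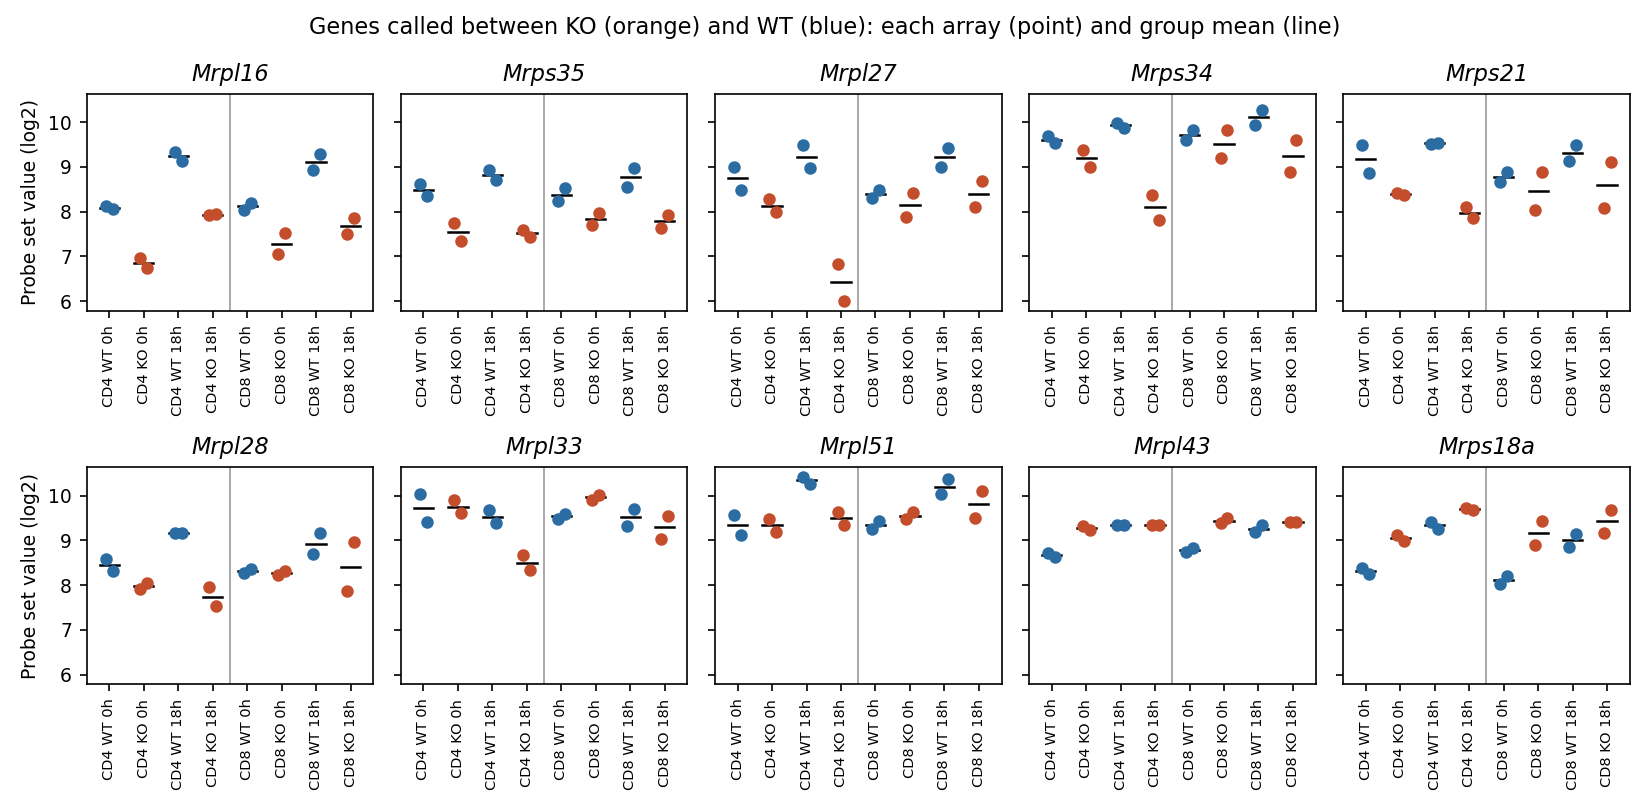
Values (log2) of the 10 genes called between KO and WT in at least 1 comparison, in each array (points) with the group mean (line), WT in blue and KO in orange. In CD4 cells at 18 h the KO points of Mrpl27 lie at 6.83 and 6.01, below every other array, while Mrpl16 and Mrps35 are lower in KO in all 4 pairs of groups.

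The difference between lineages in the effect of the genotype was tested itself. Limma called 0 of the 74 genes at 0 h, where 0% of all genes were called, and 0 at 18 h, where 0.0403% were. At an unadjusted p under 0.05 there were 0 and 7. Mrpl27 had the largest such difference at 18 h, 1.99. The KO effects in CD4 and CD8 cells, which share no arrays, were correlated across the 74 genes at r = 0.87 (rho = 0.75) at 0 h and r = 0.67 (rho = 0.69) at 18 h, against 0.46 and 0.55 over all genes.

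KO cells still raised part of the set on stimulation. In CD4 KO cells 23 genes rose and 4 fell, where 11.1% of all genes rose and 13.2% fell, with a median difference of 0.48 against 0.03 over all genes. In CD8 KO cells 2 rose and 1 fell, where 3.67% of all genes rose and 3.86% fell, with a median of 0.29 against 0.02 over all genes. With both parts of a sort as a block, 28 rose and 5 fell in CD4 KO cells, where 12.6% of all genes rose and 15.1% fell, and 13 rose and 2 fell in CD8 KO cells, where 6.51% of all genes rose and 6.13% fell. The CD8 KO count rested on single arrays, and the 3' to 5' difference was 0.56 in replicate 1 and 3.76 in replicate 2 of its stimulated group. The count grew without CD8 KO 18 h replicate 1, where the median difference was 0.57. It shrank without CD8 KO 18 h replicate 2 or CD8 KO 0 h replicate 1. Over all arrays left out in turn the median ran from 0.08 to 0.57. The CD4 KO count shrank without CD4 KO 0 h replicate 2 or without CD4 KO 18 h replicate 1, and the median ran from 0.33 to 0.53. Of the 37 genes that rose in WT CD4 cells and the 23 in KO CD4 cells, 20 were shared, and both that rose in CD8 KO cells, Mrps6 (1.30 ± 0.19) and Mrps25 (1.0 ± 0.23), also rose in WT.

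Mrps6 went from 7.18 and 6.95 to 9.54 and 9.47 in CD4 KO cells, a rise of 2.44 ± 0.19, or 5.43-fold, and from 6.94 and 7.20 to 8.39 and 8.34 in CD8 KO cells. The 4 genes that fell in stimulated CD4 KO cells were Mrpl27 (-1.71 ± 0.31), Mrpl33 (-1.25 ± 0.24), Mrpl58 (-1.14 ± 0.22) and Mrps34 (-1.10 ± 0.28). In WT CD4 cells the same genes read 0.49, -0.19, -0.47 and 0.32, and none of these passed the test. The gene that fell in CD8 KO cells was Mrpl10 (-0.67 ± 0.17), of the stalk base, named after its values were seen as was Mrpl58.

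The response itself was then compared between genotypes. In CD4 cells 1 gene of the 74, Mrpl27, responded differently in KO, by -2.20 ± 0.44 (adjusted p = 0.0317), where 1.41% of all genes did. In CD8 cells limma called 0 (10 at an unadjusted p under 0.05, all with a lower fitted response in KO), where 0.266% of all genes were called. The median of the differences was -0.28 in CD4 and -0.38 in CD8 cells, with 0.07 and 0.05 over all genes. Left out in turn, the arrays moved the medians of the members between -0.50 and -0.06 and between -0.66 and -0.15. Of the 74 genes 59 and 69 had a lower fitted response in KO. The members moved together between replicates, so these counts are not of separate observations. The median KO minus WT difference was 0.25 at 0 h and -0.15 at 18 h in CD8 cells, and -0.03 and -0.25 in CD4 cells. In CD8 cells the fitted median was thus higher in KO at 0 h and lower at 18 h. Both were about the size of the spread between replicates (0.245) or smaller. With arrays left out in turn they ran from 0.08 to 0.42 at 0 h and from -0.37 to 0.14 at 18 h. No other member passed the test. By size Mrps34 and Mrpl33 came next in CD4 cells, with -1.42 ± 0.40 (adjusted p = 0.135) and -1.06 ± 0.34 (adjusted p = 0.217). By adjusted p the next was Mrpl18, named after its values were seen (-0.91 ± 0.23, adjusted p = 0.0798). Mrpl18 was called with the replicate number as a block within each lineage (adjusted p = 0.0246). Mrps34 and Mrpl33 were called with both parts of a sort as a block (adjusted p = 0.00991 and 0.0487). That block gave 3 genes with Mrpl27 (2.39% of all genes) and still 0 in CD8 cells (0.29% of all genes).

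**Figure D4:**
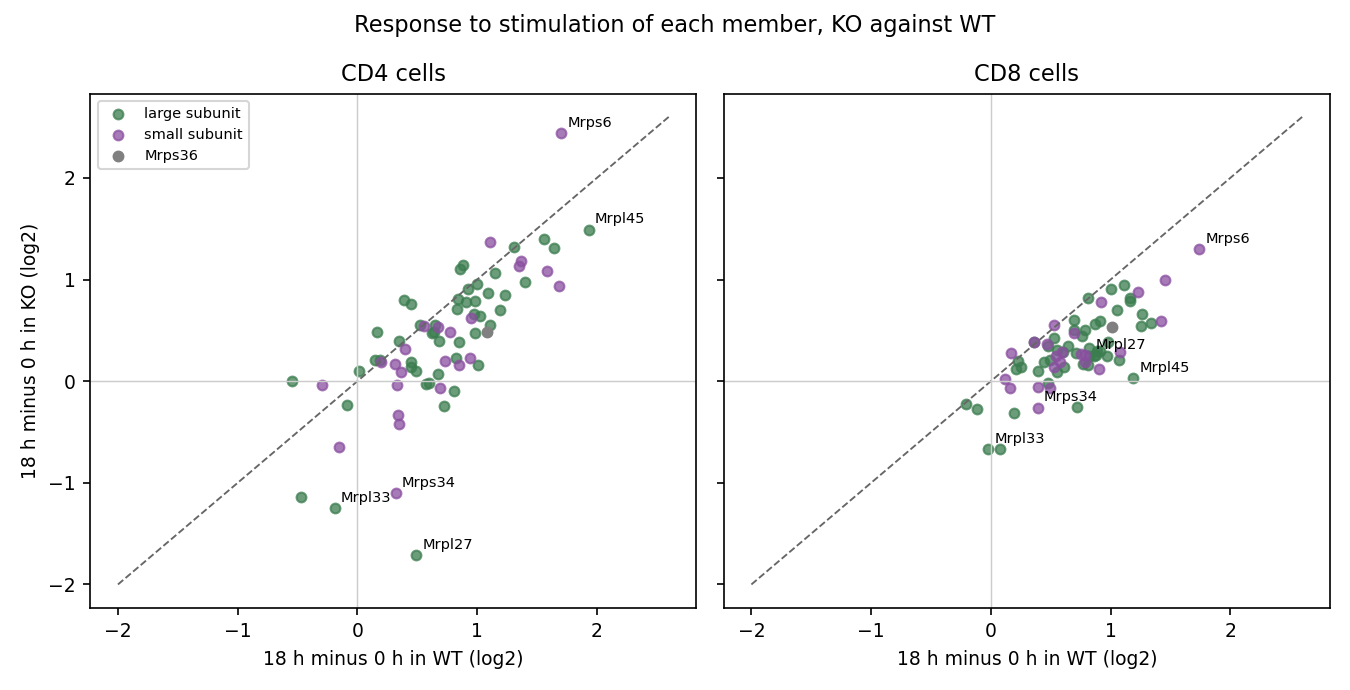
Difference 18 h minus 0 h (log2) of each of the 74 genes in KO cells against that in WT cells, for CD4 and CD8 cells, coloured by ribosomal subunit, with the line of equal response dashed. In CD4 cells 59 genes and in CD8 cells 69 genes lie below the line. The genes moved together between replicates and are not separate observations. Mrpl27 is farthest below it in CD4 cells.

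Among the other genes of mitochondrial translation, a few differed with the genotype. Mtif2, the initiation factor that brings the first tRNA, was lower in KO cells in all 4 comparisons, by -0.89 ± 0.17 and -1.86 ± 0.17 in resting and stimulated CD4 cells and by -0.78 ± 0.17 and -1.22 ± 0.17 in CD8 cells. Pdf was lower at 18 h in CD4 (-1.56 ± 0.20) and CD8 cells (-1.0 ± 0.20), and Tufm was higher at 0 h in CD4 (0.83 ± 0.17) and CD8 cells (1.06 ± 0.17). The other 6 translation factors measured were not called. Of 19 genes of ribosome assembly and rRNA modification, Mrm2, a methyltransferase of the large rRNA, was lower at 18 h in CD4 (-1.58 ± 0.23) and CD8 cells (-1.34 ± 0.23), and Ngrn was lower in CD4 cells (-1.02 ± 0.16). Of 8 mitochondrial tRNA synthetases Rars2 was lower (-1.52 ± 0.24) and Ears2 higher (0.95 ± 0.25), and of 8 genes of mitochondrial transcription and DNA upkeep Tefm was lower (-1.38 ± 0.37), each in stimulated CD4 cells. Of 48 cytosolic ribosomal proteins 1, Rpl37 (-1.27 ± 0.33), was lower there.

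Since GABP binds DNA, the start regions of the genes were read for its letters. Windows from 250 bases before to 50 after the annotated start were taken from RefSeq (assembly GRCm38.p6) for the 65 members that have one. The core CGGAAG, searched on both strands, was found in 37 of them (56.9%), against 29.2% of the 9883 genes tested that have a window and 18.8% of all 27025 genes that have one. The longer CCGGAAGT, which contains the core, was in 16.9% of members, 7.2% of tested genes and 4.3% of all. The letters AAGATGGC of YY1 were in 16.9% of members and 4.4% of tested genes, GCATGCGC of NRF1 in 12.3% and 5.0%, the E-box CACGTG in 7.7% and 10.8%, and GGGCGG of Sp1 in 52.3% and 61.1%. Such a match is a description of letters and not a binding site. Of the 8 members lower in KO, 6 had a window. The core was in 5 of these and the longer form in 3.

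To show both kinds of case, the 150 bases before the start follow, 5' to 3' in the direction of transcription, for genes that were lower in KO (Mrpl16, Mrpl27, Mrpl51 and Mrpl28) and for the pair that was higher (Mrpl43 and Mrps18a). They lie at chr19:11770265-11770414 on the + strand (Mrpl16), chr11:94653641-94653790 on the + strand (Mrpl27), chr6:125192050-125192199 on the + strand (Mrpl51), chr17:26123353-26123502 on the + strand (Mrpl28), chr19:45006443-45006592 on the - strand (Mrpl43) and chr17:46110854-46111003 on the + strand (Mrps18a). Capitals mark CGGAAG or its reverse complement.
Mrpl16: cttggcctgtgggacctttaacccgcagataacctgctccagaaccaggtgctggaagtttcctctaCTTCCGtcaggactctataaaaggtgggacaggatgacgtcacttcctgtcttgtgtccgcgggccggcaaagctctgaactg
Mrpl27: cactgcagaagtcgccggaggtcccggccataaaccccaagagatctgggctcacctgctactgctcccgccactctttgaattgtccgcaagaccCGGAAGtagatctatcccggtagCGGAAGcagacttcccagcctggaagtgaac
Mrpl51: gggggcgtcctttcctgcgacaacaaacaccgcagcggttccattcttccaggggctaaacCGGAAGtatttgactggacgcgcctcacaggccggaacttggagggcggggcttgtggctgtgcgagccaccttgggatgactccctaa
Mrpl28: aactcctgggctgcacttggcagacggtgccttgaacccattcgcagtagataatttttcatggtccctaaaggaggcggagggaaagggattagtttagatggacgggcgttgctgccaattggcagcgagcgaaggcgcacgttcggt
Mrpl43: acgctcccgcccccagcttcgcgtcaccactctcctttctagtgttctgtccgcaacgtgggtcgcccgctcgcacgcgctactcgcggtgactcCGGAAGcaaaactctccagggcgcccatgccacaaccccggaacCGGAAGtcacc
Mrps18a: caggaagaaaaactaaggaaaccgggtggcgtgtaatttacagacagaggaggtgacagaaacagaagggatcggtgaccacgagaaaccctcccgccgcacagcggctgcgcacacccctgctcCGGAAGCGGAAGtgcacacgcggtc
Mrpl16 holds the core once, on the opposite strand, and Mrpl51 once. Mrpl27 holds it at 2 places, and so do Mrpl43 and Mrps18a, in the latter directly one after the other. Mrpl28, which was lower in stimulated KO CD4 cells, holds no CGGAAG in the bases shown, though it holds the shorter GGAA. Whether the letters go with the direction of the difference was not tested.

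**Figure D5:**
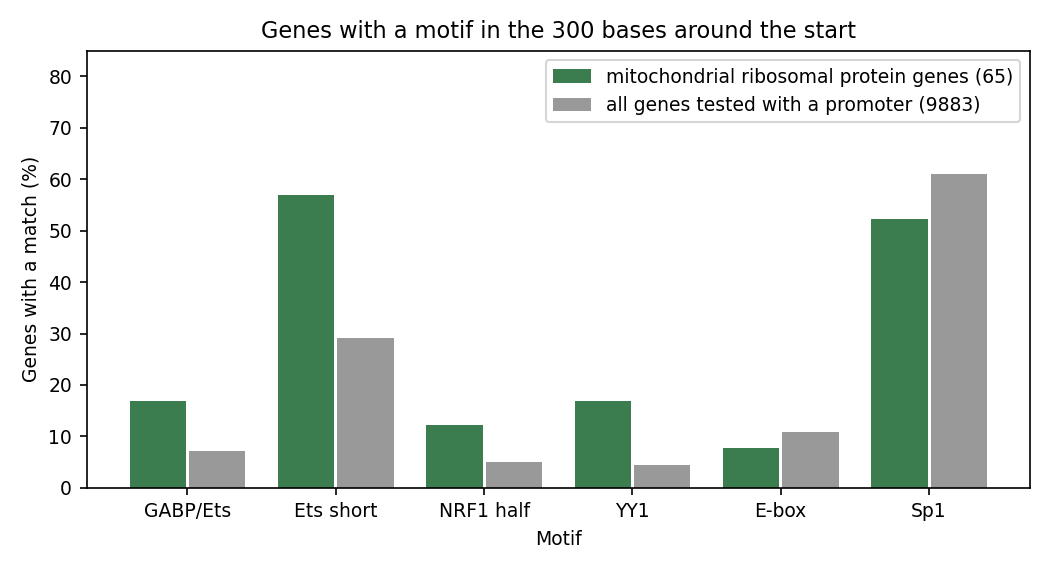
Share (%) of the 65 members with a start window (green) and of the 9883 tested genes with one (grey) that hold each motif on either strand. GABP/Ets stands for CCGGAAGT and Ets short for its core CGGAAG, which is in 56.9% of members and 29.2% of tested genes, and the E-box in 7.7% and 10.8%.

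Over all 14 contrasts 48 of the 74 genes (64.9%) were called at least once and 26 never, where 36.3% of all genes were called at least once. Between KO and WT 10 of the 74 (13.5%) were called in at least 1 of the 4 contrasts, against 8.96% of all genes.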

How the data were processed

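RNA of naive CD4+ and CD8+ T cells of WT and KO mice, taken at 0 h and 18 h, had been amplified in a pair of rounds, labelled with biotin and hybridized to 16 Affymetrix arrays, 2 for each of 8 groups given by the labels. The deposited table held log2 values of 22690 probe sets, 64 of them controls, that the authors had made with the R package affy. The exact summary method and its version were not given in the sources used here. Array medians of 5.24 to 5.43 show values already normalized between arrays, so none was added, and a shift of the total RNA content of cells would stay hidden. Precision is limited by the number of arrays.

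Probe sets were named through the platform's gene table. Of these, 20393 named 1 gene, 691 several and 1606 none, and 20364 of the first matched RefSeq (GRCm38.p6). Each of 12394 genes was represented by its brightest probe set, and 33 of the 74 members had more than 1. Differences were fitted with limma 3.58.1 (R 4.3.3), 1 mean per group over all 16 arrays, with 8 residual and 4.32 prior degrees of freedom, and two-sided p-values adjusted over all genes (Benjamini-Hochberg). The fit and the calling rule were run on simulated data with independent noise for each gene. Those data had no joint shifts between replicates, so counts and medians of the set were not tested by them. Named members were those called between KO and WT or in a difference of differences, the 6 highest and 6 lowest WT responses among those called in both lineages, the 3 brightest and 3 dimmest, 2 that the study names, and those whose probe sets disagreed, with up to 4 called genes per other pathway list in KO contrasts. The genes of the other lists named on stimulation, and the members so marked in the text, were chosen after their values were seen. Members and lists were chosen with earlier results of these data known. The 0 h and 18 h samples were parts of a sort, by the protocol in the labels, but the labels do not spell out that equal numbers mark the same sort. Replicate differences of the same lineage were correlated across genes at r = 0.18 to 0.56. The main fit has no block, and the study's methods mention none. By those methods the study took its p-values relative to a 1.5-fold change. The main fit here tests against no difference and then applies the fold threshold. Counts under a test against the fold itself (treat) are given below. Alternatives were the replicate number as a block within lineages or within sorts, other probe set rules, normalizations, filters and thresholds, array weights and leaving out arrays.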

Additional observations from a re-analysis of the deposited data

Results flagged for a closer look

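Mrpl27 was the member whose response to stimulation differed between genotypes by a test of that difference. In CD4 cells the response was 0.49 in WT and -1.71 in KO, and the difference was -2.20 ± 0.44 (limma, adjusted p = 0.0317 over all genes). Both stimulated KO arrays, at 6.83 and 6.01, were below both resting KO arrays, at 8.28 and 7.99, and the WT values moved from 9.0 and 8.49 to 9.48 and 8.98. Leaving out 1 array kept the call in 8 of 16 runs, with differences between -2.60 and -1.79. The call was lost on leaving out any single resting CD4 array, without CD4 WT 18 h replicate 1, CD4 KO 18 h replicate 2, or either resting CD8 WT array. In CD8 cells the difference was -0.57 ± 0.44 and was not called.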

How the results depend on the processing

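Counts of members called moved with the processing, in the order KO minus WT in CD4 0 h, CD4 18 h, CD8 0 h and CD8 18 h (2, 8, 2 and 2 in the text), stimulation in CD4 WT, CD4 KO, CD8 WT and CD8 KO (37, 27, 27 and 3), and the response difference in CD4 (1) and CD8 cells (0). With the replicate block, the replicate number within each lineage, the KO counts were 5, 18, 5 and 7, stimulation gave 42 in CD8 WT and 15 in CD8 KO, the CD4 response difference 4 and the lineage difference of the KO effect at 18 h 1. Replicate 2 minus replicate 1 was correlated across genes at r = 0.18 to 0.56 between groups of a lineage and at -0.60 to -0.12 between lineages. By the protocol the 0 h and 18 h samples were parts of a sort, which pairs times within a lineage and genotype. No source says what equal numbers share between genotypes. A block of those parts, chosen after seeing the data, gave 44 in CD8 WT and 15 in CD8 KO stimulation and 3 in the CD4 response difference, with stimulation counts in CD4 cells within 1.5 times. A block crossed between lineages, chosen after seeing the data, gave 5, 18, 5 and 7, then 43 and 15, 5 and 1.

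A test against the fold itself (treat) gave KO counts of 0, 2, 0 and 0, stimulation counts of 8, 6, 2 and 0, and 0 for the CD4 response difference. With the arrays of the lineage alone the counts were 1 in KO CD4 0 h, 0 in CD8 0 h and 0 in CD8 18 h, and 15 and 1 on stimulation of CD8 WT and CD8 KO cells. Array weights gave 13 in KO CD4 18 h, 1 in CD8 18 h and 1 in CD8 KO stimulation. Without the 3 arrays of high 3' to 5' difference the counts were 1, 13 and 1 in KO CD4 0 h, CD4 18 h and CD8 0 h, and 42 and 1 on stimulation of CD8 WT and CD8 KO. Centring gave 5 in CD8 KO stimulation, and quantile normalization gave 5 there and 2 in the CD4 response difference. The mean of all probe sets, the brighter genes alone and no fold threshold left all of these counts within 1.5 times the main ones, but with the mean of all probe sets Mrps11 on stimulation of CD4 WT cells was -0.01 instead of 0.77. The causes were not tested.

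Leaving out 1 array at a time gave 0 to 3, 4 to 10, 0 to 3 and 1 to 6 in the KO contrasts, 21 to 41, 13 to 28, 6 to 37 and 1 to 20 on stimulation, 0 to 1 and 0 to 2 in the response differences and 0 to 4 in the lineage difference at 18 h. The group left with 1 array was taken to vary like the others. Median differences over the members ranged from -0.26 to 0.16, -0.36 to -0.15, 0.08 to 0.42 and -0.37 to 0.14 between KO and WT, and from 0.51 to 0.95, 0.33 to 0.53, 0.55 to 0.89 and 0.08 to 0.57 on stimulation. Of 65 calls of named members 29 were kept in all 16 runs. With 2 arrays per group, small differences are not resolved.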
